A study of Mus musculus with 8 samples.

Results

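The genes described are 35 antiviral genes that cells switch on in answer to interferon, among 16958 genes with a value in intestinal crypts of mice. They were taken by symbol from a list, each symbol being matched to the gene identifier in the deposited table, and all 35 were found. RNA was sequenced from C57BL/6 mice aged 8 weeks. Knockout crypts, labelled setdb1 iIEC-KO, form 5 groups of 1 library each, titled VEMD2, VEMD3, VEMD4, VEMD6 and VEMD8. They came from Villin-CreERT2 mice, in which a promoter of the intestinal epithelium drives a recombinase that tamoxifen switches on, so that loss of Setdb1 is directed to epithelial cells. The reference crypts, labelled setdb1fl/fl and titled WT, are a 6th library and came from littermates that carry the floxed gene. Every crypt mouse, WT included, received a single gavage of tamoxifen at 800 mg/kg. The labels leave the abbreviation VEMD unexplained, and the title of the table speaks of days, so the libraries are kept in the order of their numbers without a time being given to them. The other 2 samples of the series, of stem cells, have no gene values in the table used and were not analysed here.

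Interferon-stimulated genes are the working arm of innate antiviral defence. Interferons of types I and III bind their receptors and activate a complex that holds STAT2 and IRF9 and binds a DNA element known as the interferon-stimulated response element before its target genes. The products sense viral RNA, block its translation and copying, trap virus particles at the cell surface or tag proteins with ISG15, and several of them feed back on the pathway. Setdb1, the gene deleted here, encodes a histone methyltransferase known for silencing endogenous retroviruses.

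Values are FPKM, fragments counted on a gene and scaled for its length and for the size of the library, so levels of different genes can be compared per length. Each group is 1 library. No difference could therefore be tested, no value carries an error between mice, and higher or lower describes these libraries alone. In short genes the values stepped by whole fragments, from which about 15700000 fragments in WT and up to 16500000 in the knockout libraries were estimated. At that depth 11 of the 210 values of the 35 genes rest on fewer than 100 fragments if the longest transcript of each gene is assumed, and these belong to Mx1, Mx2, Ifit3 and Ifi27l2a. With the shortest transcript they are 25, and Ifit2, Xaf1, Samd9l and Ddx60 join them. A log2 ratio was taken after 1 FPKM was added to both values, and a gene was called higher or lower when that ratio was at least 2-fold. All 35 genes passed the filter on low values, a mean of at least 1 FPKM over the 6 libraries, as did 10862 genes in all. The median ratio to WT over those genes was 0.09 in VEMD2 and 0.12 in VEMD3, was close to 0 in VEMD4 (0.03), and was -0.23 in VEMD6 and -0.06 in VEMD8, so the ratios of VEMD3 and VEMD6 are to be read against a shift. Setdb1 itself (gene 84505) was at 6.64 FPKM in VEMD2, 7.03 FPKM in VEMD3, 5.49 FPKM in VEMD4, 3.53 FPKM in VEMD6 and 4.95 FPKM in VEMD8, against 9.42 in WT, and the sum over the whole gene does not show which exons were lost. Epithelial markers such as Epcam, between 700 and 904 FPKM in the knockouts and 1080 in WT, were abundant in every library.

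The interferon-stimulated response element has a core of GAAA, any 2 bases and GAAA again, and promoters of genes that move together were read for it to show the DNA that the pathway is known to act on. RefSeq promoters on GRCm38.p6 were at hand for 27 of the 35 genes, and the 250 bases before the start site were searched on both strands. The core was present in 8 of the 27 genes (29.6%), against 936 of 27025 genes with a promoter in the same table (3.46%). Those of 6 genes are shown in lower case, read along the gene, with every base of a core match in capitals, and TTTC, 2 bases and TTTC is the same core on the opposite strand.
Isg15: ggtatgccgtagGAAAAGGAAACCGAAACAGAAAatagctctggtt
Ifit1: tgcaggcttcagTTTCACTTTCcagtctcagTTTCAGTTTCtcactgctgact
Ifit3: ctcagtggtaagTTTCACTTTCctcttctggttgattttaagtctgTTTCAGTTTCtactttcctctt
Rsad2: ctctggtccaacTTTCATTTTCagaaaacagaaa
Bst2: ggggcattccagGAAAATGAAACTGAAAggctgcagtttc
Ddx60: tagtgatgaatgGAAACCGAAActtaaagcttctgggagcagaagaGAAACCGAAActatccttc

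These stretches lie at chr4:156200863-156200908 for Isg15 (minus strand), chr19:34640773-34640825 for Ifit1 and chr19:34583361-34583428 for Ifit3 (both plus strand). That of Rsad2 is at chr12:26456551-26456584 and that of Bst2 at chr8:71537575-71537614, both on the minus strand, and that of Ddx60 is at chr8:61928022-61928086 on the plus strand. The stretch of Ifit3 lies inside the span of the gene, which begins at chr19:34583119, so the start site used is a later one. That of Ddx60 likewise reaches past the first base of its gene span, chr8:61928073. Isg15 holds 3 overlapping matches, the first of them beginning 78 bases before the start site. Ifit1 and Ifit3 carry 2 matches each that lie apart, Bst2 has 2 that overlap, and Ddx60 repeats the same 10 letters, 53 and 19 bases before its start. The other 2 genes with a core were Stat2, 222 bases before the start, and Trim30a, 36 bases before it. All 8 genes with a core were called higher in VEMD4 than in WT, with a median log2 ratio of 2.29. So were 12 of the 19 genes without one in this window, with a median of 1.16, against 7.11% of all genes. Among the 8, Ifit1, Ifit3, Rsad2, Bst2 and Trim30a are effectors against virus replication, a role whose 10 genes had a median of 2.285. The list was made of genes that answer interferon, so the core was likely to be common in it. Its part in these ratios was not tested. The shorter element TTCNNNGAA, bound by STAT dimers, was present in 3 of the 27 genes (11.1%), against 8.13% of all genes. A match is letters in a window and shows no binding, and the cores of genes that share a promoter region or a family are not independent. Promoters of Mx1, Mx2, Usp18, Ifi27l2a, Rtp4, Dhx58, Parp9 and Parp14 were not read.

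The antiviral genes were highest in VEMD4. Of the 35, 34 had their highest value of the 6 libraries there, while 11.6% of all genes tested did, and the exception was Uba7, at 30.2 FPKM in VEMD6 and 27.8 in VEMD4. All 35 stood above WT in VEMD4, as did 52.3% of all genes, and 27 were called higher, among all genes 7.11%. The median log2 ratio of the 35 was 1.91 in VEMD4, against 0.03 over all genes. Summed over the 35, the level was 978 FPKM in VEMD2, 1449 FPKM in VEMD3, 2807 FPKM in VEMD4, 1200 FPKM in VEMD6 and 1195 FPKM in VEMD8, against 873 in WT. The 24 leukocyte markers summed to 119 FPKM in VEMD2, 153 FPKM in VEMD3, 203 FPKM in VEMD4, 135 FPKM in VEMD6 and 80.4 FPKM in VEMD8, against 153 in WT. Gzma and Gzmb made up most of each leukocyte sum, at 94.8 and 42.8 FPKM in VEMD4 and 85.9 and 29.8 in WT. Over the 16 leukocyte markers that passed the filter the median log2 ratio in VEMD4 was 0.52. VEMD4 was thus the highest library for both sums, and the part of leukocytes in the antiviral genes was not tested. In bulk crypts, more cells of a type and more RNA per cell cannot be told apart.

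The other knockout libraries stood closer to WT. In VEMD3, 11 of the 35 were called higher, against 6.0% of all genes, with a median log2 ratio of 0.63. The same 11 were called higher in VEMD4 as well, where 4.46% of all genes were higher in both libraries. Mx1 led at 3.06, then Bst2 at 2.18 and Ifi44 at 1.62, and Herc6, Uba7 and Dtx3l were the lowest at -0.70, -0.23 and -0.19. In VEMD2 only Mx1 and Bst2 were, against 2.44%, and the median of 0.17 was near the 0.09 of all genes. Mx1 stood at 1.57, Bst2 at 1.13 and Mx2 at 0.92, while Herc6, Ifit1 and Ddx60 were lowest at -0.63, -0.57 and -0.40. In VEMD6, 4 were called higher, namely Rsad2, Samd9l, Usp18 and Isg15, against 5.04%, and Ifi27l2a was called lower, against 8.15%. In VEMD8, 5 were called higher, namely Rsad2, Samd9l, Ddx60, Rtp4 and Ifi44, against 4.36%. The medians were 0.41 in VEMD6 and 0.51 in VEMD8. In VEMD6 Rsad2 stood at 1.78, Samd9l at 1.23 and Usp18 at 1.18, and Ifi27l2a, Mx2 and Epsti1 were lowest at -1.34, -0.98 and -0.41. In VEMD8 Rsad2 stood at 1.78, Samd9l at 1.51 and Ddx60 at 1.39, and Ifit2, Ifi27l2a and Ifi35 were lowest at -0.66, -0.57 and -0.49. None of the 35 was called lower in VEMD2, VEMD3, VEMD4 or VEMD8, while among all genes 2.39%, 4.63%, 5.04% and 5.21% were in these libraries.

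The number that lay above WT by any amount was 22 in VEMD2 (58.6% of all genes), 29 in VEMD3 (60.0%), 26 in VEMD6 (34.1%) and 26 in VEMD8 (44.5%). The WT library held the lowest of the 6 values in 15 genes, as in 17.0% of all genes, and VEMD6 held it in 7, against 47.3%. No gene of the list was called higher in all 5 knockout libraries, which 0.571% of all genes were. The 15 genes lowest in WT are, put the other way, those in which every knockout library lay above WT. All of these ratios share the single WT library. Set against VEMD2 instead, 6 genes were called higher in VEMD3 and 21 in VEMD4, against 1.44% and 4.56% of all genes.

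**Figure D1:**
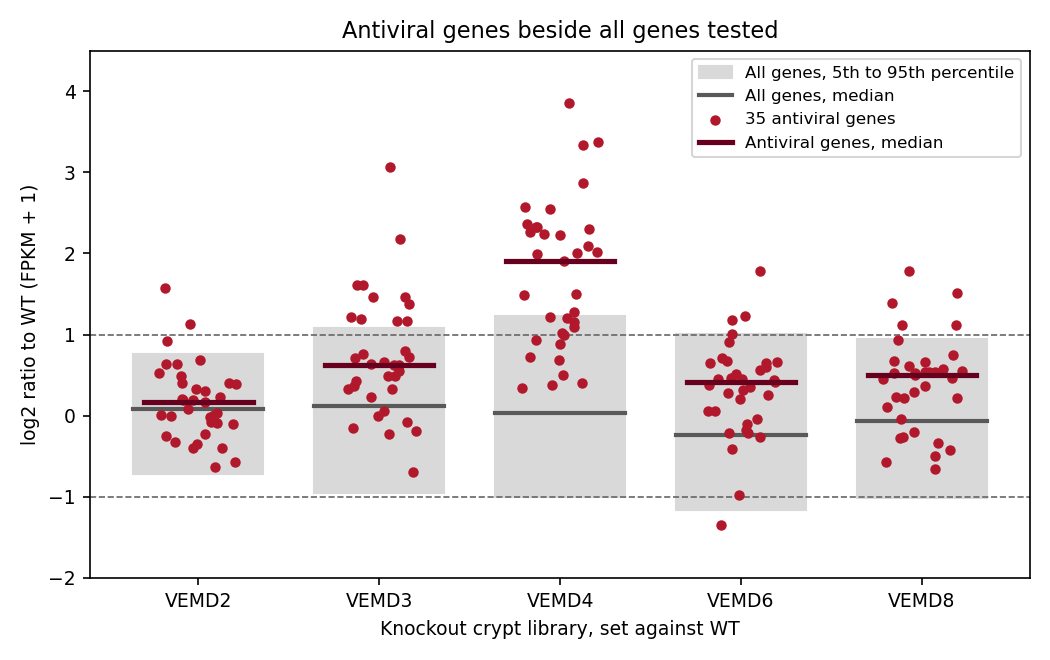
Log2 ratio to WT of each of the 35 antiviral genes (red points, with their median as a dark bar) in each knockout crypt library, over the 5th to 95th percentile and the median of all 10862 genes tested (grey); dashed lines mark 2-fold. The points of VEMD4 run from 0.34 to 3.86, around a median of 1.91, and those of the other libraries centre between 0.17 and 0.63.

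Neighbouring knockout libraries can be compared without the WT library. From VEMD2 through VEMD3 to VEMD4 the level stepped up in 32 of the 35 genes, an order held by 18.0% of all genes. VEMD3 against VEMD2 gave 6 genes called higher, while 1.44% of all genes were. These 6 were Mx1, Isg15, Rtp4, Bst2, Dhx58 and Rsad2, of which Mx1 had the largest ratio, and Dhx58 and Rsad2 lay at the limit and were not called after rescaling to the median gene. All 35 were above their VEMD3 level in VEMD4, against 32.1% of all genes. VEMD4 against VEMD3 gave 12 genes called higher, against 2.58%, with Rsad2 furthest at 2.74, followed by Usp18 at 2.03 and Ifit1 at 2.02. VEMD6 against VEMD4 gave 23 genes called lower, against 9.62%, and these included all 10 effectors that act on virus replication. After rescaling to the median gene 17 were called lower, 9 of the effectors among them and Samd9l no longer so. The share of 9.62% is from before rescaling, when the median over all genes was -0.28, and does not apply to the 17. Only Uba7 was above its VEMD4 level in VEMD6, against 31.5% of all genes. Between VEMD8 and VEMD6 no gene of the list differed by 2-fold in either direction, when 1.45% of all genes were called higher and 2.22% lower. A few genes came near, with Ddx60 at 0.98 and Herc6 at -0.94.

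**Figure D2:**
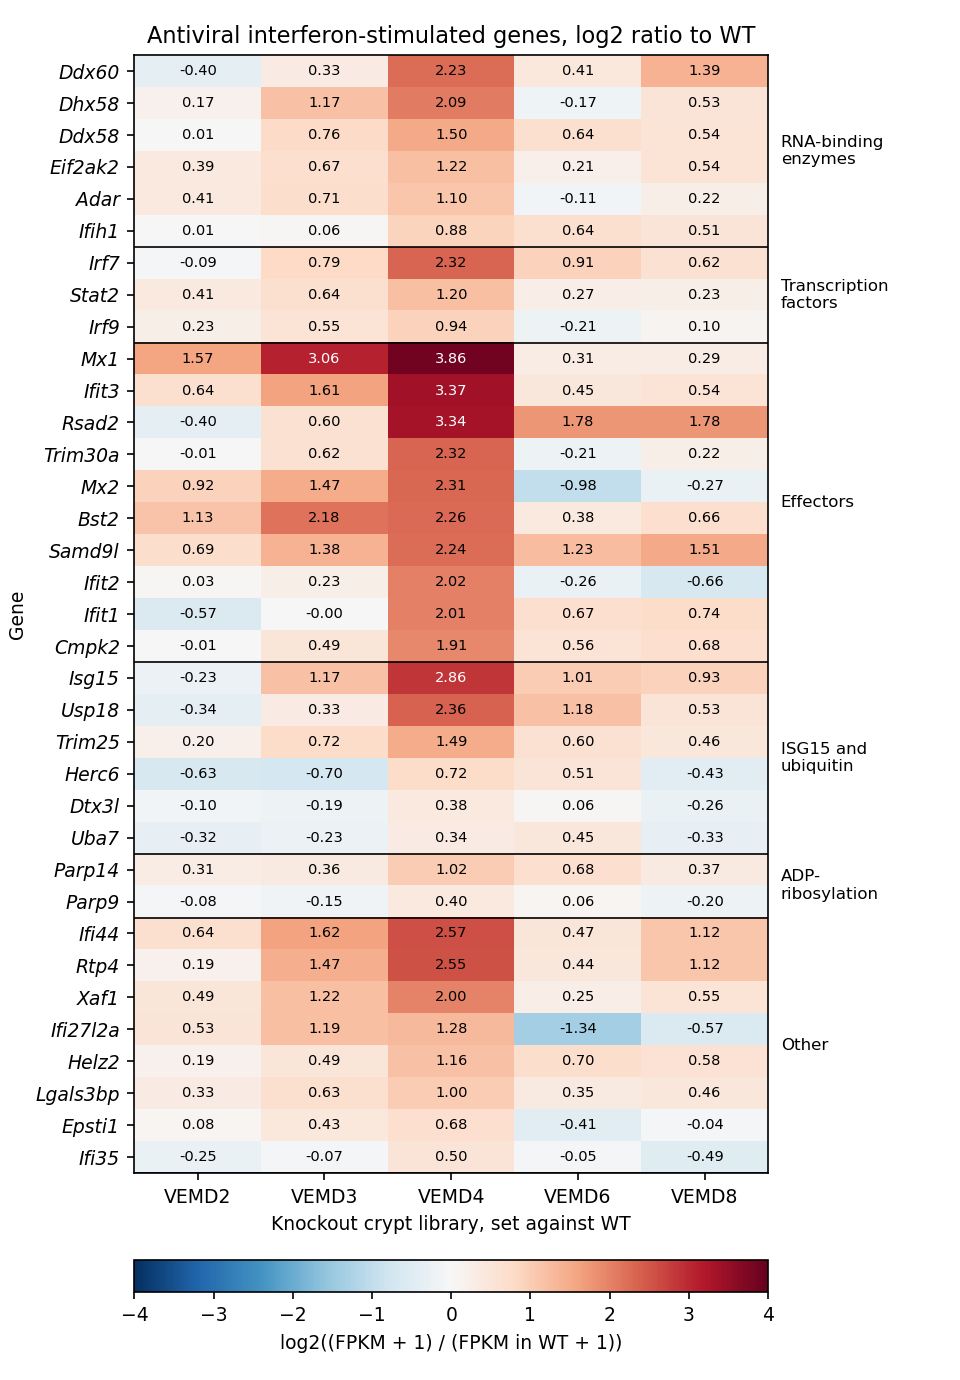
Log2 ratio to WT of the 35 genes (rows, grouped by role and ordered within each group by VEMD4) in the 5 knockout crypt libraries (columns), on a colour scale from -4 (blue) to 4 (red). The VEMD4 column is positive in every row, and the VEMD2 column holds both signs in every role.

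Among the sensors of viral RNA, Dhx58 and Ddx60 had the largest ratios to WT in VEMD4. Dhx58 (chr11), which encodes the RIG-I-like receptor LGP2, was at 8.1 FPKM in VEMD2, 17.2 FPKM in VEMD3, 33.5 FPKM in VEMD4, 6.17 FPKM in VEMD6 and 10.7 FPKM in VEMD8, against 7.09 in WT. Ddx60, a helicase reported to assist RIG-I, was at 9.13, 15.8, 61.5, 16.8 and 34.01 FPKM in VEMD2, VEMD3, VEMD4, VEMD6 and VEMD8, against 12.4 in WT. Both peaked in VEMD4, but in VEMD6 Dhx58 was below WT (above it after rescaling to the median gene) and in VEMD8 Ddx60 was still above WT by 1.39 on the log2 scale. The receptor genes Ddx58 and Ifih1 were closer to WT in VEMD4 and, with log2 ratios of 0.64 each, above both of these genes in VEMD6. Ddx58, which encodes RIG-I, was at 10.2, 17.9, 30.6, 16.4 and 15.2 FPKM in the same 5 libraries, against 10.1 in WT. Ifih1, which encodes MDA5, the sensor of long double-stranded RNA, was at 17.3, 18.0, 32.5, 27.5 and 24.9 FPKM, against 17.2 in WT, and its ratio of 0.88 in VEMD4 missed 2-fold. In both receptor genes VEMD2 was at the WT level.

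Eif2ak2 and Adar bind double-stranded RNA without being receptors. Eif2ak2 encodes PKR, the kinase that halts translation, and was at 49.9 FPKM in VEMD4, between 24.3 and 33.7 in the other knockout libraries and at 20.9 in WT. Adar, which encodes the enzyme that edits adenosine to inosine and so disarms such RNA, was at 36.7 FPKM in VEMD4, between 15.3 and 27.9 in the other knockouts and at 16.6 in WT. In all, 5 of the 6 genes of RNA-binding enzymes were called higher in VEMD4, against 7.11% of all genes. In VEMD3 and VEMD8 it was 1 of the 6 each, against 6.0% and 4.36%, too few to be read as a difference from all genes.

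Of the transcription factors, Irf7, which drives production of type I interferon and is itself induced by it, was at 39.1 FPKM in VEMD2, 73.1 FPKM in VEMD3, 212.8 FPKM in VEMD4, 79.4 FPKM in VEMD6 and 64.6 FPKM in VEMD8, against 41.8 in WT. Its log2 ratio in VEMD4 was 2.32. Stat2 and Irf9, subunits of the complex that binds the response element, were closer to WT, at 44.3 and 43.3 FPKM in VEMD4, against 18.7 and 22.1 in WT, with ratios of 1.20 and 0.94. Irf9 was the gene just short of the 2-fold call and Lgals3bp the gene just past it.

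All 10 effector genes were called higher in VEMD4, against 7.11% of all genes. Mx1, a dynamin-like GTPase of the nucleus that blocks influenza virus in mice with an intact copy, and which most laboratory strains including C57BL/6 carry in a defective form, was at 6.66 FPKM in VEMD2, 20.6 FPKM in VEMD3, 36.4 FPKM in VEMD4, 2.2 FPKM in VEMD6 and 2.15 FPKM in VEMD8, against 1.58 in WT. Mx2, its neighbour 73.2 kb away on chromosome 16 and a GTPase of the cytoplasm, was at 5.78, 8.91, 16.7, 0.82 and 1.96 FPKM, against 2.58 in WT. Their levels in VEMD2, VEMD3 and VEMD4 were above those in VEMD6 and VEMD8, where Mx2 was below WT. Mx1 had the largest log2 ratio of the 35 genes in VEMD2 (1.57), VEMD3 (3.06) and VEMD4 (3.86). Its WT value rests on about 83.8 fragments if its longest transcript is counted, and the value of Mx2 in VEMD6 on about 32.7.

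The Ifit genes, which encode proteins that bind foreign RNA ends and keep them from being translated, lie in a cluster on chromosome 19. Ifit3 was at 5.53 FPKM in VEMD2, 11.8 FPKM in VEMD3, 42.3 FPKM in VEMD4, 4.72 FPKM in VEMD6 and 5.08 FPKM in VEMD8, against 3.19 in WT. Ifit1 was at 12.5, 18.9, 79.6, 30.7 and 32.4 FPKM, against 19.0 in WT. Ifit2 was at 8.06, 9.4, 34.96, 6.37 and 4.62 FPKM, against 7.85 in WT. These 3 neighbours shared the peak in VEMD4, yet Ifit3 was above WT in every knockout library, Ifit1 was below WT in VEMD2 and above it in VEMD6 and VEMD8, and Ifit2 was below WT in VEMD6 and VEMD8. Ifit3b and Ifit1bl1, close relatives of Ifit3 and Ifit1, were also high in VEMD4, at 12.8 and 341.6 FPKM, against 1.02 and 52.2 in WT, and reads of such relatives may have been split between them, so that single values of this family are uncertain.

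Rsad2 and Cmpk2 lie 12.7 kb apart on chromosome 12 and work together on nucleotides. Rsad2 encodes viperin, which turns CTP into a chain terminator of viral RNA, and was at 4.73 FPKM in VEMD2, 10.5 FPKM in VEMD3, 75.5 FPKM in VEMD4, 24.9 FPKM in VEMD6 and 24.9 FPKM in VEMD8, against 6.54 in WT. Cmpk2, a nucleotide kinase of mitochondria, was at 13.96, 20.2, 55.6, 21.2 and 23.1 FPKM, against 14.1 in WT. Rsad2 was below WT in VEMD2 and above it in both VEMD6 and VEMD8, where it had the largest log2 ratio of the list. Cmpk2 stood at the WT level in VEMD2 and was called higher in VEMD4 alone.

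Bst2 encodes tetherin, which holds budding virus particles at the cell surface. It was at 73.7 FPKM in VEMD2, 153 FPKM in VEMD3, 163 FPKM in VEMD4, 43.3 FPKM in VEMD6 and 52.9 FPKM in VEMD8, against 33.2 in WT. Bst2 thus had nearly the same level in VEMD3 and VEMD4, which differed by 0.09 on the log2 scale. Samd9l, an inhibitor of translation that restricts poxviruses, was at 13.5, 22.5, 41.6, 20.2 and 24.7 FPKM in the 5 libraries in the same order, against 8 in WT, and was called higher in each but VEMD2. Trim30a, a TRIM protein with several close relatives next to it and therefore uncertain, was at 28.3 FPKM in VEMD4, between 4.05 and 7.99 in the other knockouts and at 4.85 in WT.

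Isg15 and the enzymes that attach and remove it did not move as a unit. Isg15, the ubiquitin-like protein itself and the most abundant gene of the list in VEMD4, was at 61.3 FPKM in VEMD2, 163 FPKM in VEMD3, 531 FPKM in VEMD4, 146 FPKM in VEMD6 and 138 FPKM in VEMD8, against 72.04 in WT. Usp18, the protease that removes ISG15 and also dampens signalling of the interferon receptor, was at 14.9, 24.4, 102.5, 44.7 and 28.1 FPKM, against 19.2 in WT. Both were below WT in VEMD2 and highest in VEMD4. Uba7, the activating enzyme, was at 17.2, 18.4, 27.8, 30.2 and 17.1 FPKM, against 21.8 in WT, and Herc6, the main ligase in mice, was at 4.64, 4.38, 13.4, 11.4 and 5.48 FPKM, against 7.72 in WT. Neither enzyme was called against WT in any library, and both lay below WT in VEMD2, VEMD3 and VEMD8. Trim25, a ubiquitin ligase that acts on RIG-I, was at 77.9 FPKM in VEMD4, between 31.3 and 45.3 in the other knockouts and at 27.0 in WT.

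Dtx3l and Parp9 encode a ubiquitin ligase and its partner of the ADP-ribosylation family. Their genes overlap at their ends on chromosome 16, with Parp14 in the same stretch, so reads of Dtx3l and Parp9 may not be told apart without strand. Dtx3l was at 43.4 FPKM in VEMD4, between 27.5 and 34.6 in the other knockouts and at 33.1 in WT. Parp9 was at 66.1 FPKM in VEMD4, between 43.4 and 52.1 in the other knockouts and at 49.9 in WT. Parp14, an enzyme that attaches single ADP-ribose units, was at 61.1 FPKM in VEMD4, between 36.9 and 47.9 in the other knockouts and at 29.6 in WT. Of these 3 neighbours only Parp14 was called higher in VEMD4, at 1.02, while the ratios of Parp9 and Dtx3l were 0.40 and 0.38.

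Among the remaining genes, Ifi44, an induced protein of the cytoplasm, was at 16.2 FPKM in VEMD2, 32.9 FPKM in VEMD3, 64.8 FPKM in VEMD4, 14.3 FPKM in VEMD6 and 23.0 FPKM in VEMD8, against 10.1 in WT. Rtp4, named for its part in the transport of receptors, was at 16.7, 41.8, 89.6, 20.1 and 32.7 FPKM, against 14.5 in WT. Xaf1, a partner of the apoptosis inhibitor XIAP, was at 9.08, 15.7, 27.7, 7.57 and 9.55 FPKM, against 6.19 in WT. All 3 followed the same course, above WT in every knockout library and highest in VEMD4. Lgals3bp, a secreted glycoprotein that binds galectin-3, was the most abundant gene of the list in WT, at 188 FPKM, and was at 236, 292, 377, 241 and 259 FPKM in VEMD2 to VEMD8. Helz2, a helicase, was at 34.8 FPKM in VEMD4, between 17.2 and 25.1 in the other knockouts and at 15.0 in WT. Epsti1 and Ifi35 were at 64.3 and 97.8 FPKM in VEMD4, against 39.6 and 68.9 in WT, and were called against WT in no library. Ifi27l2a, of the ISG12 family and with close relatives beside it that make it uncertain, had the lowest mean of the list, 4.36 FPKM, and was called lower than WT in VEMD6, where no other gene of the list was. That call was lost with a pseudocount of 5 FPKM (-0.51), and with 0.1 FPKM Mx2 was called lower there too (-1.54).

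**Figure D3:**
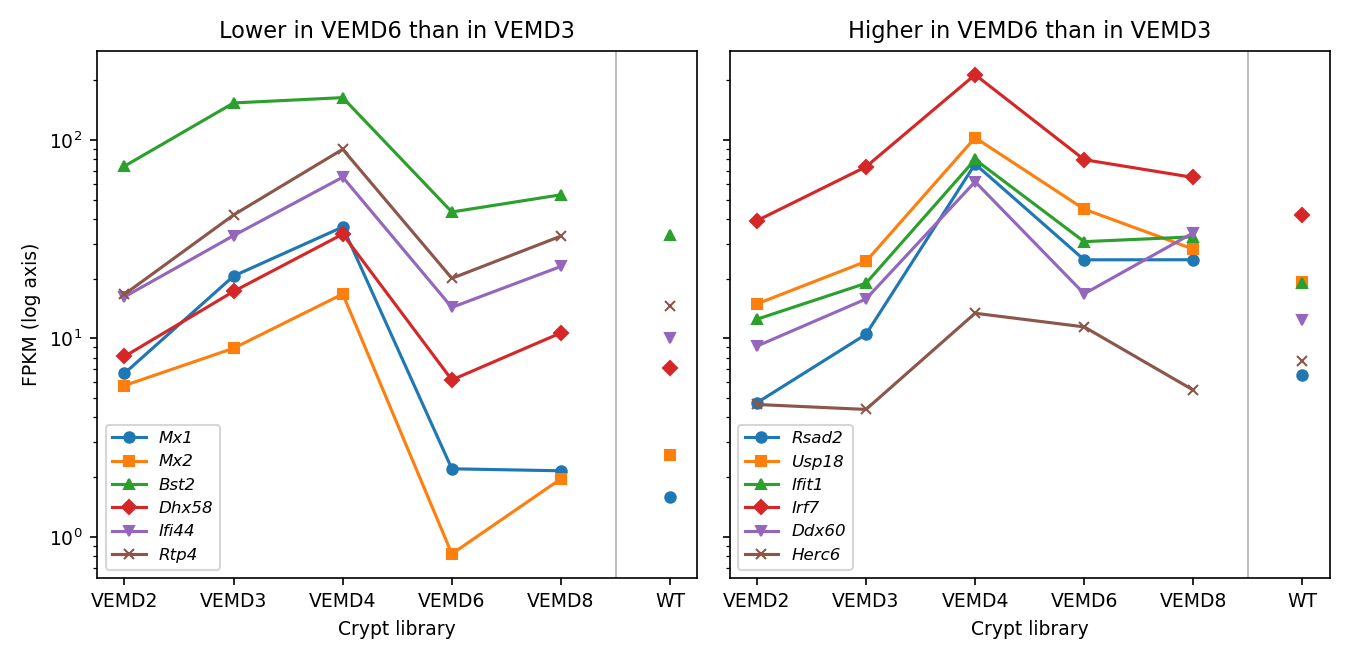
FPKM (log axis) of 12 of the antiviral genes in the 5 knockout crypt libraries and, right of the grey line, in WT; left panel, 6 genes that were lower in VEMD6 than in VEMD3, and right panel, 6 that were higher. Each line is a gene and each point is 1 library. In the right panel Ddx60 and Irf7 were higher in VEMD6 by only 0.08 and 0.12 on the log2 scale. All 12 peak in VEMD4, and in VEMD6 Mx1 and Mx2 are at 2.2 and 0.82 FPKM while Rsad2 is at 24.9.

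The libraries on either side of VEMD4 were also set against each other. In VEMD6 against VEMD3, 8 of the 35 were called lower, namely Mx1, Ifi27l2a, Mx2, Bst2, Dhx58, Ifit3, Ifi44 and Rtp4, with log2 ratios from -2.75 to -1.03. Over all genes 15.7% were called lower, and the median over all genes was -0.38. Herc6 and Rsad2 were called higher, at 1.21 and 1.17, against 6.88% of all genes. The genes called lower were 22.9% of the 35 and those called higher 5.71%. Neither count stood far from its share over all genes, so they do not mark a split within the list. In total 14 of the 35 were above their VEMD3 level in VEMD6, against 29.9% of all genes. Of the 6 genes of ISG15 and ubiquitin the median ratio was 0.47, and of the 10 effectors -0.66. This comparison was chosen after the values had been seen.

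**Figure D4:**
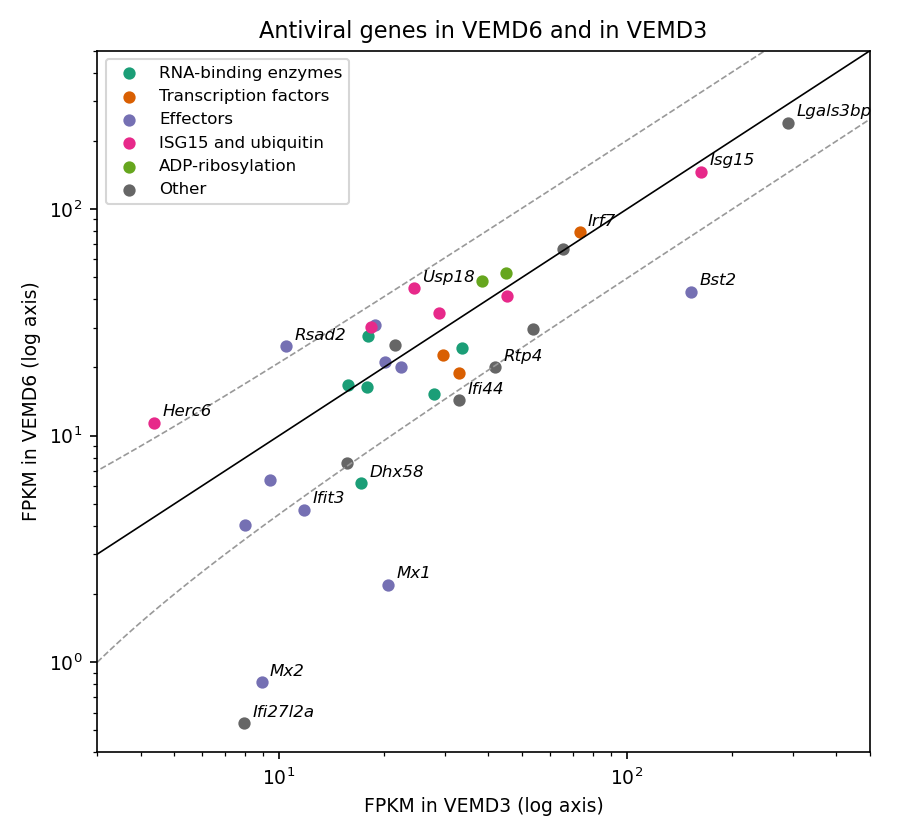
FPKM of the 35 antiviral genes in VEMD6 (vertical, log axis) and in VEMD3 (horizontal, log axis), coloured by role; the solid line marks equal levels and the dashed curves a 2-fold difference after 1 FPKM was added. Mx1, Mx2, Ifi27l2a and Bst2 lie furthest below the line, and Rsad2 and Herc6 above the upper curve.

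Other genes of the interferon pathway were read from prepared lists. Of 20 interferon genes, 13 were listed without a value, Ifnb1 among them, and the other 7 had a mean under 1 FPKM, with the highest single value 1.73 FPKM for Ifnz in VEMD4. None of the 6 receptor genes was 2-fold from WT in any knockout library. Ifnlr1, the specific chain of the receptor for type III interferon, which epithelium carries, was at 7.16, 8.08, 9.65, 9.77 and 9.14 FPKM in VEMD2 to VEMD8, against 4.94 in WT. It was the receptor gene furthest from WT in VEMD4, at a log2 ratio of 0.84. Of 11 genes of JAK, STAT and IRF signalling, Irf5 was called higher in VEMD4 and Irf8 lower, at 1.21 and -1.05. Among all genes 7.11% were called higher in VEMD4 and 5.04% lower. Of 12 tested genes of nucleic acid sensing, 4 were called higher in VEMD4, against the same 7.11%. These were Sting1 at 1.91, Zc3hav1 at 1.11, Zbp1 at 1.02 and Aim2 at 1.02. Of 9 negative regulators, Usp18 was the only one called higher there, and it is one of the 35.

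Of 50 further interferon-stimulated genes that passed the filter on low values, 26 were called higher in VEMD4 and 3 lower, with a median of 1.15. Among all genes 7.11% were higher and 5.04% lower. The highest were Oas2, which makes the messenger that activates RNase L, at 4.25, Slfn5 at 2.94, Phf11d at 2.81, Ifit3b at 2.77, Ifit1bl1 at 2.69 and Apol9b at 2.56. The 3 lower genes, named after their values were seen, were Igtp, a GTPase induced by interferon-gamma, and the immunoproteasome subunits Psmb9 and Psmb8, at -1.31, -1.27 and -1.22. In VEMD8, 5 were called higher and 10 lower, against 4.36% and 5.21% of all genes, with a median of 0.07. The guanylate binding protein gene Gbp2, chosen after its values were seen, was at 1.3 FPKM in VEMD8 and 15.1 in VEMD4, against 16.8 in WT.

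**Figure D5:**
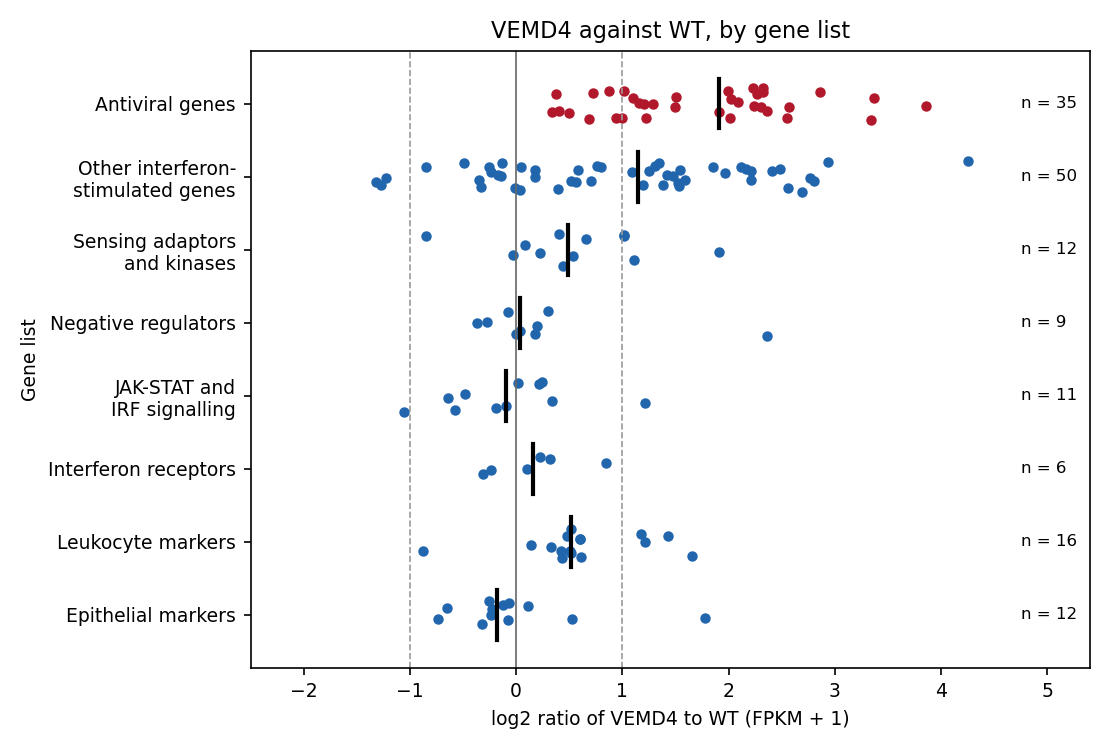
Log2 ratio of VEMD4 to WT for the genes of 8 lists with a mean of at least 1 FPKM (points; the vertical spread within a list is for legibility), with each list's median as a black bar and dashed lines at 2-fold. Medians are 1.91 for the antiviral genes, 1.15 for other interferon-stimulated genes, 0.52 for leukocyte markers and between -0.18 and 0.49 for the other lists.

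Markers of other cells moved with the libraries too. Of the 16 leukocyte markers with a mean of at least 1 FPKM, 4 were called higher in VEMD4, against 7.11% of all genes. These were Tyrobp, Cd68, Ly6c2 and Laptm5. The leukocyte antigen Ptprc was at 2.8 FPKM in VEMD4 and 1.65 in WT. Itgam, of the same list, went the other way, at 1.44 FPKM in VEMD4 and 3.48 in WT. Siglech, a marker of the plasmacytoid dendritic cells that make interferon, was at 0.6 in VEMD4 and 0.26 in WT. The macrophage gene Adgre1 was at 0.13 in VEMD4 and listed at 0 in WT. Both had a mean under 1 FPKM and did not pass the filter. Stromal and endothelial markers summed to 6.29, 7.32, 4.68, 1.43 and 1.73 FPKM in VEMD2 to VEMD8, against 3.47 in WT. Vim, the only 1 of the 10 that passed the filter, was the largest part of each sum. It was at 5.84, 6.31, 2.42, 1.22 and 1.39 FPKM, against 3.02 in WT. The highest value of the rest was that of Dcn in VEMD4, 1.3 FPKM, against 0.09 in WT, so the sums mainly follow Vim. Paneth cell markers summed to 42343, 21622, 8557, 2601 and 3705 FPKM in VEMD2 to VEMD8, against 29984 in WT, and enterocyte markers to 4243, 3262, 7886, 20225 and 9081, against 10683. Crypt base stem cell markers summed to 645, 457, 264, 220 and 391 FPKM, against 709 in WT, where Olfm4 alone was at 574 FPKM. The median log2 ratio to WT of these markers was 0.38, 0.53, 0.07, -1.07 and -0.60 in the same libraries. In VEMD2, VEMD3 and VEMD4 the sum was thus below WT while the median ratio was not. The part of epithelial cell types in the antiviral genes was not tested either.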

How the data were processed

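Crypt RNA was sequenced on a BGI-500 instrument, per the labels' protocols. HISAT2, featureCounts and edgeR, with the builds GRCm38 and mm10, are named in the submitters' processing notes, without versions and without saying which made the table. Gene values are FPKM as deposited by the authors, with the unit per the file headers. Of 20718 lines, 3760 hold no value. Symbols were matched by gene identifier to RefSeq on GRCm38.p6, which named 16916 of 16958 genes. Another deposited table, of repeats, was not used, and 2 of its columns hold values per sample.

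Ratios, calls at 2-fold and list counts were computed with Python 3.11.15, numpy 2.4.6 and pandas 2.3.3, and the call rule and the step estimate were tested on simulated data. The step of 1 fragment was the period of FPKM times length in genes of a single transcript between 300 and 1200 bases (GENCODE M21); 64.1% to 78.7% of the low values lay within 0.2 of a whole fragment, against 40% for evenly spread values. Fragments behind a gene depend on the transcript length assumed.

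A group is a single library, so nothing was tested and no error is given. The genes, lists and rules were chosen with earlier results of these data known. Every one of the 35 genes is accounted for, and those at least 2-fold from WT in VEMD4 are named with values, as are the 3 highest and 3 lowest in each other knockout library. From the interferon and leukocyte lists, up to 6 genes 2-fold from WT in VEMD4 are named, and some genes outside this rule are said to be chosen later. Ptprc, Itgam, Siglech, Adgre1, Gzma, Gzmb, Ifnlr1 and Ifnz are also named outside this rule. Epithelial, stromal, Paneth, enterocyte and stem cell markers are given mainly as sums. Alternatives were another pseudocount, filter, fold, scaling or reference library.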

Additional observations from a re-analysis of the deposited data

Results flagged for a closer look

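Ifi27l2a, a small protein of the ISG12 family, was called higher in some knockout libraries and lower in another, as no other gene of the list was with a pseudocount of 1 FPKM. With 0.1 FPKM, Mx2 was called lower in VEMD6 as well, at -1.54. Ifi27l2a was at 4.65 FPKM in VEMD2, 7.92 FPKM in VEMD3, 8.52 FPKM in VEMD4, 0.54 FPKM in VEMD6 and 1.63 FPKM in VEMD8, against 2.91 in WT. Its log2 ratio to WT was 1.19 in VEMD3, 1.28 in VEMD4 and -1.34 in VEMD6, and the difference between these libraries was not tested. At its transcript length of 463 bases the value in VEMD6 stands for about 4 fragments (95% Poisson interval 1.09 to 10.2) and that in WT for about 21 (13.0 to 32.1), which covers counting error only.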

How the results depend on the processing

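No paired analysis was possible because a group is a single library. The median log2 ratio of the 35 genes changed by less than a ratio of 1.5 under all alternatives run, and lay between 1.52 and 1.98 in VEMD4. With a pseudocount of 5 FPKM the genes called higher against WT numbered 7 in VEMD3, 3 in VEMD8, 2 in VEMD6 and 1 in VEMD2. No share over all genes stands beside the counts with another pseudocount or after rescaling. Those counts show how the calls depend on the setting and are not a result about the list. At 1.5-fold they were 6 in VEMD2 (10.2% of all genes), 20 in VEMD3 (16.5%), 11 in VEMD6 (11.3%) and 10 in VEMD8 (10.8%), with 16 in VEMD3 against VEMD2 (4.52%), 23 in VEMD4 against VEMD3 (5.99%) and 3 lower in VEMD8 against VEMD6 (6.22%). At 4-fold they were 2 in VEMD3 (1.12%), 16 in VEMD4 (1.88%) and 0 in VEMD2 (0.322%), VEMD6 (1.1%) and VEMD8 (1.18%). With VEMD2 in place of WT, VEMD3 had 6. VEMD8 against VEMD6 had 1 lower gene with a pseudocount of 0.1 FPKM and 1 after rescaling to the median gene. That rescaling left 25 genes called higher in VEMD4, without Parp14 and Lgals3bp, and 32 with their highest value there. It changed the sign of 4 ratios in VEMD2, of 1 each in VEMD3 and VEMD8, and of 4 in VEMD6 (Irf9, Dhx58, Adar and Ifi35), none of them called. Without VEMD6, an alternative chosen after seeing the data, all 35 genes were highest in VEMD4. Of 175 ratios of single genes, 8 moved by over 1.5 times with a pseudocount of 5 and 1 with 0.1. Low values limit Ifi27l2a, Mx1, Mx2 and Ifit3 most. The causes of these changes were not tested.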
